A study of Mus musculus with 12 samples.

Results

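The growth hormone receptor and STAT5 axis of the liver was followed as 9 genes: the receptor Ghr, the transcription factors Stat5a and Stat5b, the feedback inhibitors Socs2 and Cish, the repressors Bcl6 and Cux2, and the secreted outputs Igf1 and Igfals. The genes were taken by symbol, and all 9 were found among the 55536 genes of each deposited table. Their transcripts were measured by sequencing of ribosome-depleted total RNA in 12 mouse liver samples. The animals were wild-type C57BL/6J mice (strain label C57BL/6), 8 weeks of age, kept in a 12 h light and 12 h dark cycle; sex is not given in the labels used here. Each received 0.1 OD of adenovirus by the tail vein, and livers were collected after 12 days at zeitgeber time 12 (ZT12), the end of the light phase, after 6 h without food. Virus, food withdrawal and collection time were thus shared by the 3 groups of 4 samples, which differed in the short hairpin carried by the virus: against the bacterial lacZ gene (shLacZ, the control), against G0s2 (shG0s2) or against Rgs16 (shRgs16). The hairpin came from a virus given to the whole animal, and the labels do not say which liver cells took it up. Nothing in the labels ties a replicate to an animal of its own; the p-values therefore reflect only how far these samples scatter, and that scatter may be technical.

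Growth hormone binds its receptor GHR on hepatocytes, and the receptor-bound kinase JAK2 phosphorylates STAT5A and STAT5B, which enter the nucleus and bind DNA. STAT5B is the form on which male-type liver transcription mainly depends. SOCS2 and CIS, the product of Cish, are induced by STAT5 and dampen the same receptor; BCL6 is a repressor that STAT5 represses and whose sites overlap those of STAT5, and CUX2 is a repressor found mainly in female mouse liver. The liver is the main source of circulating IGF1, and the acid-labile subunit encoded by Igfals holds IGF1 in a long-lived complex in blood. In male rodents growth hormone arrives in pulses and STAT5 activity follows them, so Socs2, Cish and Bcl6 transcripts can move within hours.

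Sample totals lay between 25636504 and 26472233 counts in shLacZ, between 18458266 and 26031061 in shG0s2 and between 24855361 and 27170443 in shRgs16. With TMM scaling each hairpin target was lower under its own hairpin: G0s2 fell by 0.98 on the log2 scale in shG0s2 (SE 0.198, edgeR adjusted p 0.00301) and Rgs16 fell by 2.51 in shRgs16 (SE 0.378, adjusted p 0.00172). The fall of G0s2 was not called with library size alone (−0.48, adjusted p 0.0553), and its deposited TPM overlapped, with 60.4 to 125 in shG0s2 and 101 to 135 in shLacZ. In shG0s2, too, Rgs16 was lower, by −1.32 (SE 0.244, adjusted p 0.00236), a larger difference than that of G0s2 itself; with library size alone it was −0.83 (adjusted p 0.0201). Scaling matters for every value below. CPM (counts relative to the library total) are scaled by TMM, which sets the bulk of genes to no change. With library size alone the median gene moved up by 0.498 on the log2 scale in shG0s2 and by 0.309 in shRgs16, and in the authors' TPM (abundance corrected for transcript length) by 0.686 and 0.423. Changes are therefore relative to the bulk of genes. For the members, the other scalings are given where they alter a call or a sign. For the gene lists, counts with library size alone are given. Values of single list genes are with TMM only, and their calls may not hold with library size alone. The liver label fitted the markers: each of 13 hepatocyte genes was detected in every group, and their summed TPM lay between 44750 and 48539 in shLacZ, between 46876 and 61705 in shG0s2 and between 58129 and 63225 in shRgs16. Of those 13 genes, 11 fell and 0 rose in shG0s2 by the edgeR test (median log2 change −0.96), and 8 fell and 2 rose in shRgs16 (median −0.42). With library size alone 9 fell and 2 rose in shG0s2 (median −0.47), and 4 fell and 3 rose in shRgs16 (median −0.12). Summed macrophage markers ranged over 421 to 470 TPM (shLacZ), 1110 to 1205 TPM (shG0s2) and 795 to 985 TPM (shRgs16), and those of stellate cells over 96.1 to 128, 519 to 702 and 191 to 319 TPM in the same order. Of the macrophage list 10 of 11 genes rose in shG0s2 and 9 of 10 in shRgs16, and of the stellate list 10 of 10 and 7 of 10. With library size alone 11 and 10 rose in the macrophage list, and 10 and 9 in the stellate list. No marker was at 0 in all samples of a group. In bulk liver, fewer cells of a type and less RNA per cell cannot be told apart. What these markers contribute to the members' values was not tested.

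Before the expression values, the start regions of the members are shown for the letters TTCNNNGAA, the core to which STAT5 dimers bind, which reads the same on both strands. Start regions of 300 bases (250 before and 50 after the start, RefSeq, GRCm38.p6) were given for 8 of the 9 members, 15 windows in all. The core occurred in 5 windows of 3 members, Cish, Bcl6 and Igfals, against 2726 of 32851 windows of the whole table (8.30%). The stretches below were chosen because they hold the matches next to a start of a feedback gene, a repressor and an output; capitals mark the core, positions count from 1 at the start, and each reads 5′ to 3′ on the gene's strand.
Cish, chr9:107296559-107296678, plus strand, positions −100 to 20: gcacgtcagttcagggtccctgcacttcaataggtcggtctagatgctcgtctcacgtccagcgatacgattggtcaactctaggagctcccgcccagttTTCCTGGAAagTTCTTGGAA
Bcl6, chr16:23981344-23981463, minus strand, positions −180 to −61: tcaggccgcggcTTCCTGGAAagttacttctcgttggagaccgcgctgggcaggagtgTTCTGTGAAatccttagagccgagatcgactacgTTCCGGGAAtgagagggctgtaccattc
Igfals, chr17:24877594-24877693, plus strand, positions −250 to −151: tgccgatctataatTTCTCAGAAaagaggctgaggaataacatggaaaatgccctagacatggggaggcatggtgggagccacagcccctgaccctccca
Igfals, chr17:24878131-24878230, plus strand, positions −100 to −1: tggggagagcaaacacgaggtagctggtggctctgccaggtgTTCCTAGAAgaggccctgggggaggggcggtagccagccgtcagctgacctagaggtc

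Cish held the core at positions 1 and 12 and the Bcl6 window at −168, −122 and −88. Windows with 2 or more cores made up 0.457% of the table (150 windows) and those with 3 or more 0.033% (11 windows). The other Bcl6 window held TTCTCAGAA at −118, the same 9 letters as the Igfals match at −236. The windows of Ghr, Stat5a, Stat5b, Cux2 and Igf1, and the remaining window of Igfals, held no such letters. A match describes the sequence and not binding, and these files hold no binding data.

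Compared per length, the members spanned a wide range of transcript abundance. In shLacZ, Igf1 averaged 338 ± 21.9 TPM and Ghr 221 ± 3.03 (SD, n = 4 here and for every group mean below), followed by Igfals at 39.7 ± 8.62, Bcl6 at 19.7 ± 7.18, Stat5b at 16.8 ± 1.47, Socs2 at 7.97 ± 4.28, Stat5a at 7.61 ± 0.210, Cish at 3.56 ± 1.78 and Cux2 at 0.568 ± 0.318. In that order Igfals and Bcl6, Bcl6 and Stat5b, and Socs2 and Stat5a overlapped with their neighbour, and the other neighbours did not. Igf1 and Ghr kept the top places and Cux2 the last in both knockdowns. Between them the order moved: in shG0s2, Stat5b (22.5 ± 1.18 TPM) stood above Igfals (20.3 ± 3.56 TPM) with overlapping ranges, whereas in shRgs16 Igfals (45.9 ± 6.22 TPM) stood clear of Stat5b (21.9 ± 1.27 TPM).

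**Figure D1:**
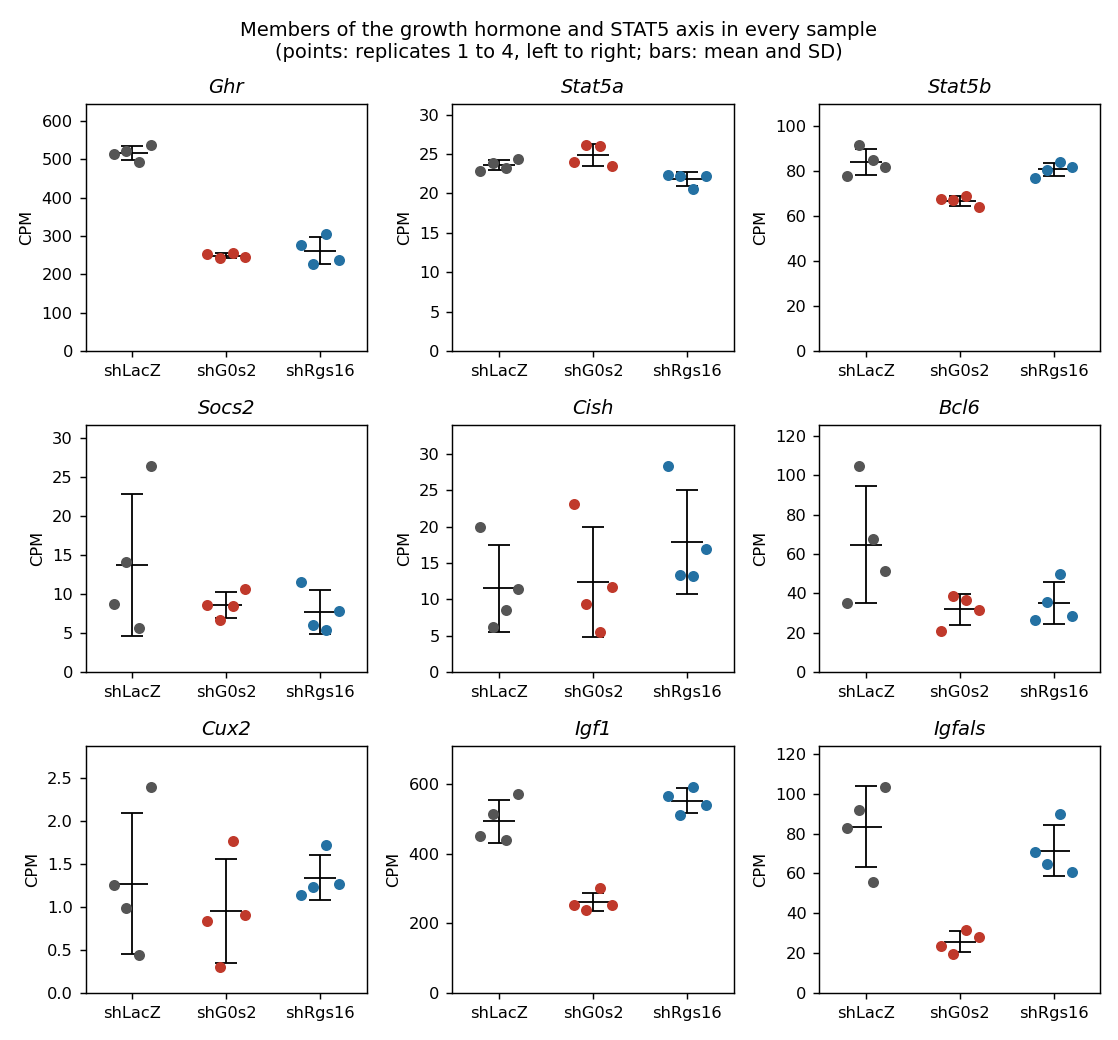
Expression of the 9 genes in each sample, one panel per gene, with TMM-scaled CPM on a vertical axis that starts at 0. Points are replicates of shLacZ, shG0s2 and shRgs16 and bars are the mean and SD. Ghr is low in both knockdowns (228 to 305 CPM against 493 to 537 in shLacZ), Igf1 and Igfals are lower in shG0s2 than in both other groups, and Socs2, Cish, Bcl6 and Cux2 scatter widely within groups.

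Against shLacZ, 4 of the 9 genes were lower in shG0s2 by the edgeR quasi-likelihood test (Ghr, Stat5b, Igf1 and Igfals) and none was called higher. Bcl6 was lower too at an unadjusted p under 0.05 and with DESeq2, and none was higher by either; without TMM or in TPM, Stat5b had the opposite sign. Of all 15592 genes tested in that comparison 60.5% were called, 29.2% as lower. The median log2 change of the 9 genes was −0.66, beside 0.01 for all tested genes. In shRgs16, Ghr alone of the 9 was called, as lower, where 49.1% of 15324 tested genes were called and 24.5% as lower; the members' median was −0.11. With library size alone 72.6%, 58.5% and 47.6% of all genes were called in shG0s2 and shRgs16 against shLacZ and between the knockdowns (64.6%, 50.2% and 37.8% as higher, 7.99%, 8.35% and 9.79% as lower). These knockdown comparisons use the same 4 control samples. All 9 genes passed the filter on low counts in every comparison. Between knockdown and control, CPM of the groups did not overlap for 55.6% of tested genes in shG0s2 and 45.0% in shRgs16, and between the knockdowns for 39.8%. Set directly against each other, shG0s2 and shRgs16 differed in 4 of the 9 genes, with Stat5a higher and Stat5b, Igf1 and Igfals lower in shG0s2; 41.5% of 16018 tested genes were called there. Counted in either direction, the members' share called was thus below that of all genes in both comparisons with the control. Counted as lower only, it was above that of all genes in shG0s2 and below it in shRgs16. With 9 genes, neither share is read as a result about the members.

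**Figure D2:**
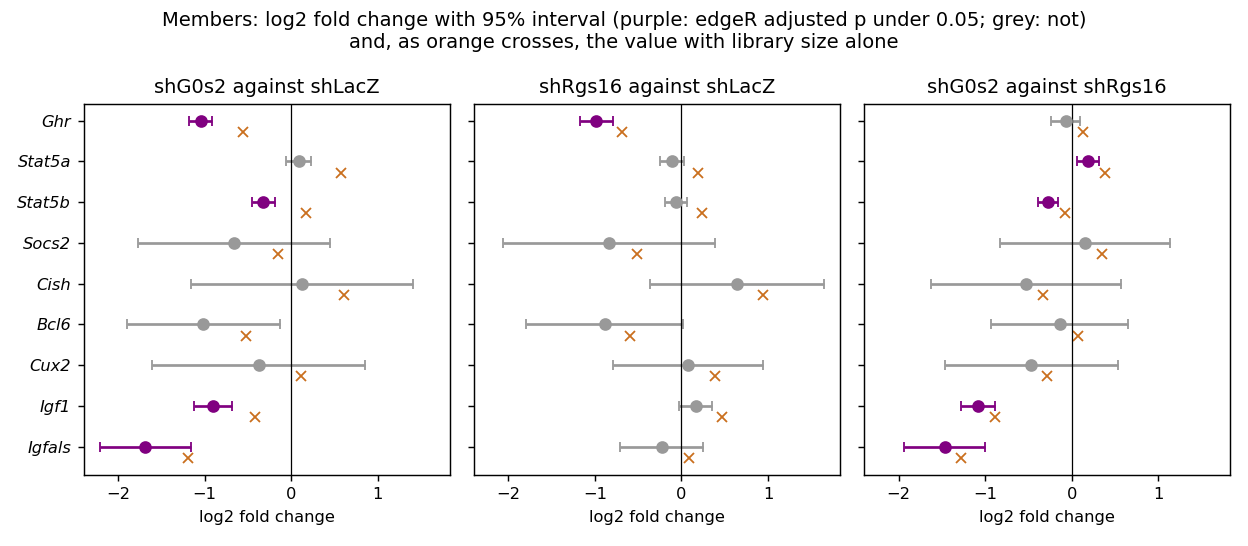
Log2 fold change of each gene in the 3 comparisons with TMM scaling (points, with 95% intervals from edgeR) and with library size alone (crosses). Ghr is −1.04 and −0.98 against shLacZ, Igf1 and Igfals are lower in shG0s2 than in shLacZ and shRgs16, the crosses sit to the right of the points, and the intervals of Socs2, Cish, Bcl6 and Cux2 are wide.

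Ghr, the receptor (ENSMUSG00000055737; chromosome 15, 3317760 to 3583492, minus strand, GRCm38), was lower than in the control in both knockdowns. The shLacZ samples had 513, 521, 493 and 537 CPM. In shG0s2 the values were 252, 243, 255 and 245, and in shRgs16 275, 228, 305 and 237. Every knockdown sample was thus below every control, and the knockdown groups overlapped. Ghr fell by 1.04 in shG0s2 (SE 0.061, 95% interval −1.18 to −0.91, adjusted p 7.8e-08) and by 0.98 in shRgs16 (SE 0.088, −1.18 to −0.79, adjusted p 5.3e-06). The knockdowns differed from each other by −0.07 (95% interval −0.24 to 0.10, adjusted p 0.505). With library size alone the falls were 0.55 and 0.68, and in limma on log2(TPM + 0.1) 0.50 and 0.50, all past the threshold. The shRgs16 group varied more than the shG0s2 group, with an SD of 35.6 against 5.64 CPM.

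Stat5a and Stat5b are neighbouring genes on chromosome 11 (ENSMUSG00000004043, 100859351 to 100885169, plus strand, and ENSMUSG00000020919, 100780731 to 100850724, minus strand), and they encode closely related proteins, so estimated counts may share some reads between them. Stat5b had 77.9, 91.6, 84.8 and 81.8 CPM in shLacZ, 67.4, 67.0, 68.8 and 63.8 in shG0s2 and 76.8, 80.5, 83.9 and 81.8 in shRgs16. The shG0s2 samples lay below all others. The log2 change of Stat5b in shG0s2 was −0.32 (SE 0.060, adjusted p 0.000595), but 0.17 with library size alone (adjusted p 0.0527) and 0.42 in limma on TPM (adjusted p 0.00114), so its direction holds only relative to the bulk of genes. In shRgs16 Stat5b differed by −0.06 (95% interval −0.19 to 0.07, adjusted p 0.426), against 0.24 with library size alone (adjusted p 0.00709). Between the knockdowns Stat5b differed by −0.27 (SE 0.056, adjusted p 0.00112), a call lost with library size alone (−0.07, adjusted p 0.365) and on TPM (0.035, adjusted p 0.732).

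Stat5a had 22.9, 23.9, 23.2 and 24.3 CPM in shLacZ, 23.9, 26.2, 26.1 and 23.5 in shG0s2 and 22.4, 22.2, 20.6 and 22.2 in shRgs16. The 3 groups lay within a few CPM of each other. Stat5a differed from the control by 0.09 in shG0s2 (95% interval −0.06 to 0.23, adjusted p 0.271) and by −0.11 in shRgs16 (−0.25 to 0.02, adjusted p 0.157), whereas library size alone gave 0.58 and 0.19 (adjusted p 3.0e-05 and 0.0391). The knockdowns differed from each other by 0.19 (SE 0.062, adjusted p 0.0221), a call lost with no filter on low counts (adjusted p 0.0919) and without any 1 of shG0s2 replicate 2, shG0s2 replicate 3 or shRgs16 replicate 3 (adjusted p 0.0679 to 0.0779).

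A ratio taken within a sample does not depend on library scaling. It can still differ between estimated counts and TPM. For every 100 Stat5b counts there were 29.4, 26.1, 27.4 and 29.7 Stat5a counts in shLacZ, 29.1, 27.6, 24.5 and 27.1 in shRgs16, and 35.5, 39.0, 37.9 and 36.8 in shG0s2. The balance between the STAT5 genes was therefore shifted toward Stat5a in shG0s2, by 0.41 on the log2 scale against shLacZ and by 0.46 against shRgs16, with no overlap of the samples. Each of these differences had an exact two-sided permutation p of 0.0286, the smallest that 4 samples against 4 allow. Over the 18 ratio tests made (6 ratios in 3 comparisons), 9 reached that p, and their Benjamini-Hochberg adjusted p was 0.0571, so none passed 0.05 after adjustment.

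Igf1, the growth factor (ENSMUSG00000020053; chromosome 10, 87858265 to 87937042, plus strand), separated the knockdowns, whose Ghr values overlapped. It had 450.2, 512, 438 and 570.5 CPM in shLacZ, 253, 238, 299.8 and 252 in shG0s2, and 567, 510.5, 592 and 541 in shRgs16. The shG0s2 samples were all below the other groups, and the shRgs16 samples lay at or above the upper part of the control range. Igf1 fell by 0.91 in shG0s2 (SE 0.101, 95% interval −1.13 to −0.69, adjusted p 9.5e-06), by 0.42 with library size alone (adjusted p 0.000348), and was not called in limma on TPM (−0.18, adjusted p 0.0899). In shRgs16 it differed by 0.16 (SE 0.089, −0.03 to 0.36, adjusted p 0.151), against 0.47 with library size alone (adjusted p 0.000197) and 0.36 on TPM (adjusted p 0.00072). Without shLacZ replicate 4, which had the most Igf1 of the controls, the shRgs16 value was 0.24 (adjusted p 0.0276). Between the knockdowns Igf1 was lower in shG0s2 by −1.08 (SE 0.093, adjusted p 4.8e-07), and this difference was called in all 10 alternatives.

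Igfals, the acid-labile subunit (ENSMUSG00000046070; chromosome 17, 24865997 to 24882010, plus strand), had the largest fall of the 9 genes in shG0s2. CPM values were 82.9, 91.7, 55.7 and 104 in shLacZ, 23.6, 19.6, 31.8 and 27.9 in shG0s2, and 70.8, 64.6, 89.6 and 60.7 in shRgs16. All shG0s2 values lay below all others, and the other groups overlapped. Igfals fell by 1.68 in shG0s2 (SE 0.224, 95% interval −2.21 to −1.16, adjusted p 0.000343) and was called there in all 10 alternatives. In shRgs16 the difference was −0.23 (SE 0.205, −0.71 to 0.25, adjusted p 0.394), with the opposite sign under library size alone (0.08); without shLacZ replicate 3, the lowest control, it was −0.39 (adjusted p 0.0491). The direct difference between the knockdowns was −1.47 (SE 0.212, adjusted p 0.00029).

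The output genes were also set against the receptor within each sample. Per 100 Ghr counts, Igf1 had 87.8, 98.4, 88.8 and 106 counts in shLacZ and 100.2, 98.0, 118 and 103 in shG0s2, which overlap, and 206, 224, 194 and 228 in shRgs16, which do not. On the log2 scale the Igf1 to Ghr ratio differed from shLacZ by 0.14 in shG0s2 (exact permutation p 0.229, adjusted 0.316) and by 1.16 in shRgs16 (p 0.0286, adjusted 0.0571). From the deposited TPM these differences were 0.32 and 0.85, and the shG0s2 ratios no longer overlapped those of shLacZ. The closest samples there were shG0s2 replicate 2, with 265.48 TPM of Igf1 to 156.86 of Ghr, and shLacZ replicate 4, with 366.08 to 217.39. Whether Igf1 changed relative to Ghr in shG0s2 thus depends on the unit. The Igfals to Ghr ratio differed by −0.63 in shG0s2 with overlap (exact p 0.0857, adjusted 0.140) and by 0.79 in shRgs16 without overlap (exact p 0.0286, adjusted 0.0571). Per 100 Igf1 counts, Igfals had 18.4, 17.9, 12.7 and 18.1 counts in shLacZ, 9.31, 8.24, 10.6 and 11.1 in shG0s2 and 12.5, 12.6, 15.1 and 11.2 in shRgs16. The Igfals to Igf1 ratio was thus lowest in shG0s2, by 0.77 below shLacZ (exact p 0.0286, adjusted 0.0571), and overlapped between shRgs16 and shLacZ (−0.38, exact p 0.0571, adjusted 0.103).

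**Figure D3:**
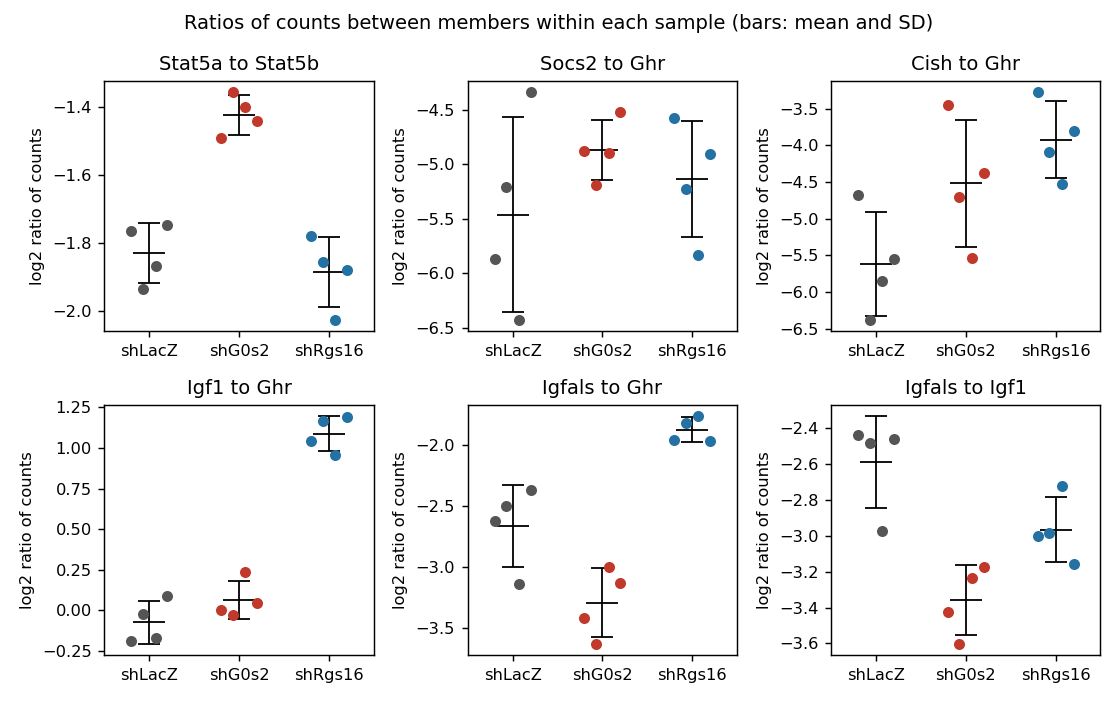
The 6 within-sample count ratios on the log2 scale, with points for the samples of each group and bars for the mean and SD. The shRgs16 samples stand above both other groups for Igf1 to Ghr and Igfals to Ghr, and the shG0s2 samples stand above the others for Stat5a to Stat5b and below them for Igfals to Igf1.

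The feedback inhibitors and repressors varied more within groups than almost all genes. The within-group SD of log2 CPM was 0.773 for Cux2, 0.709 for Cish, 0.633 for Socs2 and 0.510 for Bcl6, larger than that of 98.0%, 97.1%, 95.5% and 90.8% of the 16018 tested genes, whose median was 0.168. Igfals had 0.317, Igf1 0.142 and Ghr 0.118, while Stat5b had 0.070 and Stat5a 0.062, with 7.64% and 4.83% of genes varying less. The spread sets how small a difference the test can call: against shLacZ in shRgs16 the 95% interval was −2.06 to 0.39 for Socs2 and −0.79 to 0.95 for Cux2.

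Socs2, the receptor's feedback inhibitor (ENSMUSG00000020027; chromosome 10, 95385362 to 95417180, minus strand), had 8.75, 14.1, 5.70 and 26.5 CPM in shLacZ, 8.57, 6.61, 8.53 and 10.6 in shG0s2 and 11.5, 6.07, 5.33 and 7.88 in shRgs16. The highest values were in 2 control samples and all groups overlapped. The differences of −0.66 (SE 0.468, adjusted p 0.261) and −0.83 (SE 0.514, adjusted p 0.223) were not called. In the knockdowns the Socs2 to Ghr ratio was 0.59 and 0.33 higher than in shLacZ on the log2 scale, with exact permutation p of 0.257 and 0.514.

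Cish, the other feedback inhibitor (ENSMUSG00000032578; chromosome 9, 107296026 to 107302784, plus strand), had 20.0, 6.23, 8.49 and 11.4 CPM in shLacZ, 23.1, 9.31, 5.44 and 11.7 in shG0s2 and 28.4, 13.4, 13.2 and 16.9 in shRgs16. Replicate 1 was the highest of its group in all 3 groups. Cish differed by 0.12 in shG0s2 (SE 0.537, adjusted p 0.864) and by 0.64 in shRgs16 (SE 0.422, 95% interval −0.36 to 1.64, adjusted p 0.253). On TPM the shRgs16 difference was 1.06 and passed the limma test (adjusted p 0.0320). Relative to Ghr in counts, Cish was 1.69 higher in shRgs16 than in shLacZ on the log2 scale without overlap (exact p 0.0286, adjusted 0.0571). In shG0s2 it was 1.10 higher with overlap (exact p 0.114, adjusted 0.171). From the deposited TPM the shRgs16 and shLacZ ratios overlapped slightly. There shRgs16 replicate 3 had 4.85 TPM of Cish to 182.44 of Ghr, and shLacZ replicate 1 had 5.94 to 221.78.

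Bcl6, the repressor with the 3 core matches printed above (ENSMUSG00000022508; chromosome 16, 23965052 to 23988852, minus strand), had 34.9, 105, 67.6 and 51.4 CPM in shLacZ, 20.6, 38.5, 36.6 and 31.6 in shG0s2 and 26.3, 35.6, 49.9 and 28.2 in shRgs16. Control means were higher, but control replicate 1 lay within both knockdown ranges. In shG0s2 Bcl6 differed by −1.01 (SE 0.371, adjusted p 0.0507), just outside the threshold; 6 of 10 alternatives called it, among them DESeq2 (adjusted p 0.0135) and limma-voom (0.0184), while library size alone gave −0.52 (adjusted p 0.259) and limma on TPM −0.14 (adjusted p 0.603). It was called without shLacZ replicate 1 (−1.21, adjusted p 0.0179). The authors' deposited table gives −1.03 with an adjusted p of 0.0170. In shRgs16 the difference was −0.89 (SE 0.379, adjusted p 0.0948), called in 2 of 10 alternatives and without shLacZ replicate 1 (adjusted p 0.0380); the authors' deposited table gives an adjusted p of 0.0615.

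Cux2, the female-enriched repressor (ENSMUSG00000042589; chromosome 5, 121856366 to 122050102, minus strand), was near the lower limit of detection, with 27, 21, 10 and 51 counts in shLacZ, 25, 7, 51 and 25 in shG0s2 and 32, 34, 44 and 32 in shRgs16. The groups overlapped fully. Its differences of −0.38 (SE 0.550, adjusted p 0.581) and 0.08 (SE 0.396, adjusted p 0.888) were not called, with a 95% interval of −1.61 to 0.86 in shG0s2.

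Cish and Bcl6 moved in opposite directions from sample to sample. By CPM, the order of the 4 samples by Cish was the exact reverse of their order by Bcl6 in shLacZ and in shRgs16. By CPM too, replicate 1 had the most Cish and the least Bcl6 in all 3 groups. In the deposited TPM the reverse order held in shLacZ but not in shRgs16. There replicate 4 had the least Bcl6, with 7.57 TPM against 9.28 in replicate 1. Over the 12 samples log2 CPM of the 2 genes had a Pearson r of −0.70 (permutation p 0.0107, adjusted 0.0640 over the 6 pairs among Cish, Socs2, Bcl6 and Cux2) and a Spearman rho of −0.80 (permutation p 0.00285, adjusted 0.0171). Without the 2 samples farthest from the median of Cish, r was −0.86, and for deviations from the group means r was −0.87. The pair was examined after its values had been seen, and the other 5 pairs had adjusted p for r between 0.440 and 0.962.

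**Figure D4:**
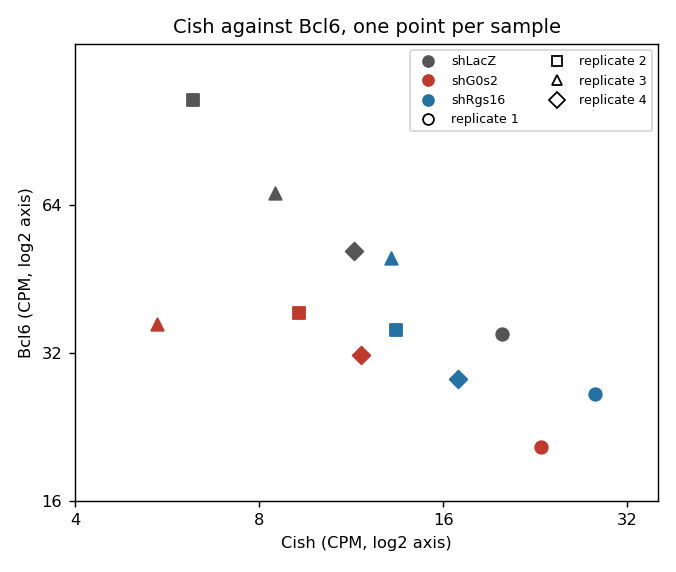
Bcl6 against Cish in the 12 samples, both axes in CPM on a log2 scale, with colour for the group and marker shape for the replicate number. Samples with more Cish have less Bcl6 in shLacZ and shRgs16, and in shG0s2 except between replicates 2 and 3, with a Pearson r of −0.87 for deviations from group means.

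The transcript length that count and TPM together imply, relative to the median gene of the sample, was examined after the values had been seen. For Igf1 it averaged 1607 bases in shLacZ (1521 to 1671) and 1578 in shG0s2 (1481 to 1743), but 1906 in shRgs16 (1875 to 1975), above every other sample. For Ghr it was 2578 bases in shLacZ (2534 to 2649), 2883 in shG0s2 (2713 to 3010, above every other sample) and 2469 in shRgs16 (2415 to 2554). Of 6742 genes with enough counts, implied lengths of the groups did not overlap for 7.42% in shG0s2 against shLacZ, 8.42% in shRgs16 against shLacZ and 7.09% between the knockdowns. A change in implied length describes how the authors' estimate divided the reads among transcripts, and the transcripts themselves are not in these tables.

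Genes with the most similar pattern were sought by the root-mean-square difference of log2 CPM, each gene centred on its own mean over the 12 samples, among 12420 genes. Nearest to Ghr were Fam210b (0.060) and Pcyt2 (0.087), the latter an enzyme of phosphatidylethanolamine synthesis. Igf1 was nearest to Atg9a (0.119), an autophagy protein, and Agt (0.130), the angiotensinogen gene, and Igfals to Hal (0.188), the histidine ammonia-lyase gene, and Dpy19l3 (0.200). Stat5a was nearest to Galnt1 (0.043) and Snx3 (0.045), and Stat5b to Nfu1 (0.044) and Nsa2 (0.052), all small differences between genes that varied little. Cish was nearest to the transcription factor genes Myc (0.317) and Foxa2 (0.437), and Bcl6 to Keg1 (0.318) and Atxn1 (0.326). Socs2 had Sspn (0.353) and Tmtc2 (0.375), and Cux2 had Apcs (0.424) and Slc25a25 (0.451); these distances are several times those of Ghr.

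Around the receptor, the kinases and adaptors of the JAK-STAT list were counted next. Of 16 tested genes, 7 rose and 1 fell in shG0s2 (median 0.10) and 2 rose and 5 fell in shRgs16 (median −0.08), beside 31.3% of all genes rising and 29.2% falling in shG0s2, and 24.6% and 24.5% in shRgs16. With library size alone the counts were 14 rising and 0 falling, and 8 rising and 0 falling. Jak2, the receptor's kinase, went from 25.5 ± 1.71 to 34.7 ± 1.72 CPM in shG0s2 (0.45, SE 0.070, adjusted p 0.000133) and differed by 0.15 in shRgs16 (adjusted p 0.0732); the knockdowns differed by 0.29 (adjusted p 0.00176). Stat2 fell by 0.32 in shRgs16 (SE 0.045).

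Genes that attenuate the receptor's signal, a list of 16 other than Socs2 and Cish, had 7 rising and 1 falling in shG0s2 (median 0.17) and 8 rising and 1 falling in shRgs16 (median 0.15), beside 31.3% and 29.2% of all genes in shG0s2 and 24.6% and 24.5% in shRgs16; with library size alone 14 and 12 rose and 0 fell in either. Sirpa, a phosphatase-recruiting membrane protein that macrophages also carry, went from 49.3 ± 0.824 CPM to 153 ± 9.40 in shG0s2 (1.64, SE 0.059, adjusted p 2.9e-09) and 101 ± 10.0 in shRgs16 (1.03, SE 0.069, adjusted p 8.9e-07). The macrophage marker sums given above moved in the same order, and their part in the Sirpa value was not tested. Adam17, a protease that sheds receptor ectodomains, rose by 0.58 in shG0s2 (adjusted p 8.8e-06) and differed by 0.15 in shRgs16 (adjusted p 0.0544). Socs3, an inhibitor of cytokine receptors, rose by 0.84 in shRgs16 (adjusted p 0.00448), not in shG0s2 (0.13, adjusted p 0.668), and differed between the knockdowns by −0.73 (adjusted p 0.0130). Socs7 fell by 0.66 in shG0s2.

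Other receptors mostly rose. Of 11 tested receptors of the cytokine and insulin classes, 8 rose and 1 fell in shG0s2 (median 0.95) and 6 rose and 1 fell in shRgs16 (median 0.68), where 31.3% and 24.6% of all genes rose; with library size alone 9 and 8 rose, and 0 and 1 fell. Lepr, the leptin receptor, rose by 1.09 in shG0s2 and by 2.38 in shRgs16, and was lower in shG0s2 than in shRgs16 by −1.30 (SE 0.298, adjusted p 0.00579). Igf2r, which clears IGF2, rose by 0.63 and 0.76, and Insr, the insulin receptor, fell by 0.51 and 0.64. Several of these receptors are carried by blood cells, such as Csf2rb, a shared subunit of myeloid cytokine receptors (0.95 and 0.78), and Il2rb, which is also among the lymphocyte markers. Summed T and NK cell markers ranged over 13.4 to 29.8 TPM (shLacZ), 58.3 to 69.1 TPM (shG0s2) and 44.4 to 66.4 TPM (shRgs16); their part in these counts was not tested. Prlr, the prolactin receptor, which resembles GHR, differed by −0.49 and −0.44 and was not called.

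Beyond Igf1 and Igfals, the IGF ligands, binding proteins and proteases had 5 of 10 tested genes rising and 2 falling in shG0s2 (median 0.51) and 3 of 8 rising and 3 falling in shRgs16 (median 0.40), where 31.3% and 24.6% of all genes rose and 29.2% and 24.5% fell; with library size alone 6 and 5 rose, and 1 fell in each. Igf2, the foetal growth factor, was near the lower limit of detection in shLacZ (0.395 ± 0.209 CPM). In shRgs16 it was at 9.53 ± 6.95 CPM, with wide scatter between samples. Igfbp4, an abundant binding protein, went from 1715 ± 55.2 CPM to 952 ± 72.1 in shG0s2 (−0.84, SE 0.084) and 1347 ± 65.2 in shRgs16 (−0.35, SE 0.069). Igfbp7, a matrix-associated binding protein, rose by 0.87 in shG0s2. Igfbp1 and Igfbp2, binding proteins raised in fasting, were lower in shG0s2 than in shRgs16 by −1.26 and −1.20 (adjusted p 0.0115 and 0.0126), and Igfbp3, the partner of IGF1 in the complex with the acid-labile subunit, was higher by 0.77 (SE 0.144, adjusted p 0.000555).

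Liver transcription factors known to act at Ghr or Igf1 mostly fell: 8 of 13 in shG0s2 (median −0.45) and 7 of 13 in shRgs16 (median −0.36), beside 29.2% and 24.5% of all genes, and the rest were not called, while library size alone gave 2 falling and 2 rising, and 1 and 1. Hnf4a, also a hepatocyte marker, went from 1016 ± 61.1 CPM to 519 ± 32.4 in shG0s2 (−0.96, SE 0.078) and 739 ± 83.2 in shRgs16 (−0.46, SE 0.087), a difference of −0.51 between the knockdowns (adjusted p 0.000208). Cebpa fell by 0.82 and 0.47, and the glucocorticoid receptor Nr3c1 by 0.28 and 0.34.

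Genes listed as male-biased and growth hormone-dependent in liver mostly fell in both knockdowns. Growth hormone itself was not measured here. Of 21 male-biased genes, 21 fell in shG0s2 (median −2.76) and 18 in shRgs16 (median −1.44), and 20 and 16 with library size alone; the others were not called. Of all genes 29.2% and 24.5% fell. The list was chosen with earlier results of these data known, which limits what the count shows. Between the knockdowns, 16 of the 21 were lower in shG0s2 and 1 higher, beside 20.5% and 21.0% of all genes. With library size alone 14 were lower and 3 higher. C4a, a male-biased complement gene, went from 135 ± 7.32 CPM to 19.9 ± 2.24 in shG0s2 and 44.1 ± 4.13 in shRgs16, and Hsd3b5, a steroid-metabolising enzyme gene, from 90.1 ± 19.6 to 0.220 ± 0.109 in shG0s2. Of 15 tested female-biased genes, 12 rose in shG0s2 (median 2.77) and 11 in shRgs16 (median 1.98), beside 31.3% and 24.6% of all genes. The others were not called, and with library size alone 12 rose in each. Slc22a27, a transporter gene, went from 2.21 ± 0.713 CPM to 17.5 ± 3.16 and 19.8 ± 1.68. Cyp2b9, a cytochrome P450 gene, went from 2.82 ± 1.14 CPM to 101 ± 14.7 in shG0s2, and differed by 0.12 in shRgs16. Many of these genes have near-identical copies, so the value of a single copy is uncertain.

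**Figure D5:**
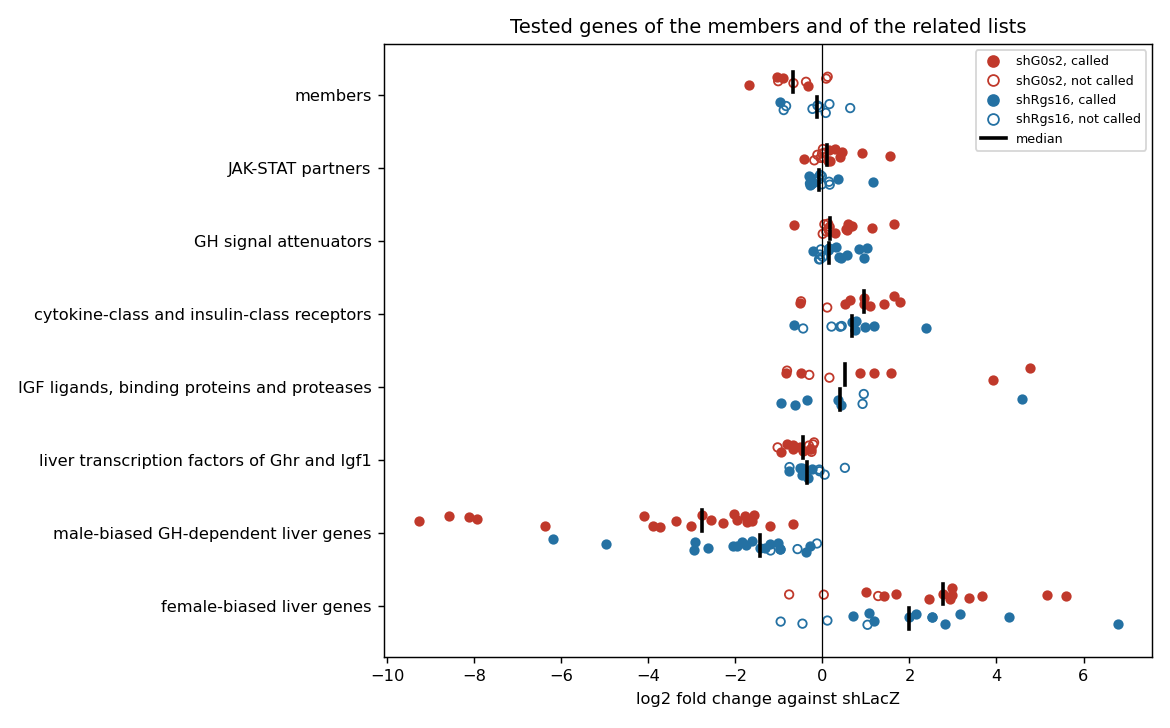
The 9 members and the gene lists around them in shG0s2 and shRgs16 against shLacZ, with the log2 fold change of each tested gene as a point (filled where called, open where not) and a line at the median. The male-biased genes lie below 0 and the female-biased genes mostly above it in both knockdowns, while the medians of the JAK-STAT partners and attenuators lie between −0.08 and 0.17.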

How the data were processed

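Each knockdown had 1 deposited table with the shLacZ control; the 8 control columns present in both tables held the same values (0 differed). Per the file headers the authors gave estimated counts, TPM, a fold change (ratio), its log2 value and a p-value per gene. Per the submitters' processing notes the tools included DESeq2, Bowtie2 2.2.9, SAMtools 1.9, fastp 0.19.5 and GATK 3.8, without roles. Which build, annotation, counter and strandedness applied is not given in the sources used here. Every one of 55536 identifiers matched GENCODE vM21 (GRCm38), which supplied the coordinates. Estimated counts split reads among similar transcripts by a model.

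Here estimated counts were rounded, filtered with filterByExpr, scaled by TMM and tested in edgeR 4.0.16 by its two-sided quasi-likelihood test (robust; Benjamini-Hochberg over all genes, 0.05). Adjusted p-values with no other tool named are edgeR's. Each knockdown was fitted with shLacZ (8 samples) and the knockdowns were compared in a model of 12. All CPM, of members and of other genes, are scaled over all 12. Ratios used counts plus 0.5 and an exact permutation test; correlations used 100000 permutations. The pipeline was tested on simulated data, where the share of false calls was above 0.05 in both knockdown comparisons. Alternatives were DESeq2 1.42.0, limma 3.58.1 (voom, or log2(TPM + 0.1)), RLE, library size alone, TMM set from genes other than Mup and mt-, no filter, 1 CPM in 4 samples, other samples in the model, a replicate block and each sample left out; for ratios a pseudocount of 1 or TPM. Named are the 9 genes, members of the receptor, JAK-STAT, attenuator and IGF lists, the 3 genes with the smallest p per other list and knockdown, and the 2 most similar genes per member; some genes the rule takes are not reported here. Members, lists and rules were chosen with earlier results of these data known.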

Additional observations from a re-analysis of the deposited data

Results flagged for a closer look

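With 45 sets of 4 samples examined (each gene and each ratio in each group), 2 held a sample whose gap to its nearest neighbour was above Dixon's 95% critical value for 4 samples; chance flags about 1 in 20. Stat5a in shRgs16 replicate 3 was the lowest of its group at 20.6 CPM, against 22.2 to 22.4 in the other replicates, and the call of Stat5a between the knockdowns was lost without it. In shLacZ replicate 3 the log2 ratio of Igfals to Igf1 was −2.97, against −2.48 to −2.44 in the other control samples, and this sample also had the lowest Igfals of the controls (55.7 CPM).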

How the results depend on the processing

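The 30 alternative counts of genes called, and 28 with a sample left out, stayed within 1.5 times the main count (8758 to 9301, 6487 to 7397 and 5779 to 6869 with a sample left out, for shG0s2, shRgs16 and the knockdowns against each other), but with library size alone 89.0%, 85.7% and 79.4% of calls were higher, against 51.7%, 50.1% and 50.6%. The 72 alternative ratio values, and 144 with a sample left out, kept their direction. Those of the block, among the 72, equal the main values by construction and could not change. No ratio passed after adjustment, and with a sample left out or with the block the design cannot reach the threshold. The kept direction therefore says nothing of stability. Members called in shRgs16 numbered 4 with library size alone, 2 with limma-voom, 5 on TPM and 1 to 2 with a sample left out (2 without shLacZ replicate 1, 3 or 4); with a sample left out the numbers were 4 to 5 in shG0s2 and 3 to 4 between the knockdowns. Signs reversed with library size alone or on TPM, where the median of all genes also moved: in shG0s2 Stat5b (0.17, 0.42), Cux2 (0.11 with library size) and Socs2 (0.013 on TPM); in shRgs16 Stat5a (0.19, 0.31), Stat5b (0.24, 0.38), Igfals (0.082, 0.23) and Cux2 (−0.34 on TPM); between the knockdowns Ghr (0.13 with library size), Stat5b (0.035 on TPM) and Bcl6 (0.070, 0.48). With the TPM of the median marker in place of the summed TPM, the difference of the hepatocyte markers in shG0s2 changed sign (−0.13). Leaving out samples gave −0.38 to 0.53 for Cish and −0.85 to 0.13 for Cux2 in shG0s2, −0.22 to 0.58 for Cux2 in shRgs16, and −0.13 to 0.0091 for Ghr and −0.26 to 0.078 for Bcl6 between the knockdowns. The cause of these changes was not tested. Same-numbered samples correlated by −0.07 to 0.14 over all tested genes. Neither this nor the labels settle whether the numbers mark a shared batch that affects some genes. With a replicate block 3 members were called in shRgs16, Cish being 0.68 there (adjusted p 0.00118). Between the knockdowns 5 were called with the block, Cish being −0.62 (adjusted p 0.0085).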
